A study of Homo sapiens with 10 samples.

Results

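The control-probe purifications of HepG2 and PC-3 show which small RNAs come down with the beads and the probe labelled as control in a procedure the submitters call miRIP, in which a nucleic acid probe is put into living cells and captured from them on streptavidin beads. They are 4 of the 10 samples of the series, chosen by their labels: 1 control purification of each cell line, each measured on panel 1 and on panel 2 of a quantitative PCR array. HepG2 is an established human liver tumour line and PC-3 an established human prostate cancer line. Both had been transfected with the control probe for 24 hours, HepG2 in EMEM and PC-3 in Ham's F12K medium, each with fetal bovine serum. The remaining purifications, for which HepG2 received a probe named p21 or STAT3 and PC-3 the one named p21, serve only to see whether the same miRNAs came down again. Neither the control probe's sequence, or whether it matches any RNA, nor the number of cells per purification is given in the sources used here, so fewer cells and less RNA per cell cannot be told apart.

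The panels hold 745 miRNA assays for 742 names, 375 on panel 1 and 370 on panel 2, and since their assays differ they are not replicates. An assay gives a Cq, the PCR cycle at which its signal crosses a threshold. A lower Cq means more RNA, 1 cycle is read as 1 log2 unit (a 2-fold step), and an assay counted as detected at a Cq of at most 35. Each line was purified with the control probe 1 time, so differences between the lines went without replicates and were not tested. Only the error of repeated wells could be measured. From assays present on both panels (27 pairs over 5 purifications, offsets between panels included), the SD of 1 Cq was 0.68 cycles, which gives 0.96 cycles for a difference of 2 Cq values and 1.93 cycles for 2 SD of it. Differences above 1.93 cycles are called beyond well error here, which leaves out the unknown error of transfection and purification. Most of the 27 pairs were reference wells (U6, SNORD38B, SNORD49A and UniSp6), which crossed earlier than most detected miRNA assays. For these 4 assays the SD of the PC-3 minus HepG2 control difference, taken within a panel, was smaller, at 0.33 cycles. A miRNA pair entered only with both wells at or under 35, so well error near the limit may be larger.

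A miRNA is a single-stranded RNA that sits in an Argonaute protein and guides it to messenger RNAs, mainly through bases 2 to 8, its seed. Members of a family share that seed and so share many targets. Some miRNAs are made in most cells, such as the let-7 family. Others are known from few tissues, such as miR-122 of liver, miR-124 and miR-9 of brain, miR-1 and miR-133 of striated muscle, miR-223 and miR-451 of blood cells, and miR-126 of endothelium. RNAs recovered with a control probe are called background here by its label, and a control probe serves as the level that a probe against a chosen messenger RNA has to exceed.

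The mature sequences of the assays that made up the background of both lines are given first, since they came down with the control probe in each. They run 5′ to 3′ with the seed in capitals and are RefSeq sequences on GRCh38.p14, which holds 7 of the 10.
miR-346: uGUCUGCCcgcaugccugccucu
miR-663 (now miR-663a): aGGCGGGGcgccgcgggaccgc
miR-324-3p: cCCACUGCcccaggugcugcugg
let-7d* (now let-7d-3p): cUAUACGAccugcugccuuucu
miR-1266 (now miR-1266-5p): cCUCAGGGcuguagaacagggcu
miR-520h: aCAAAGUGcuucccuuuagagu
miR-605 (now miR-605-5p): uAAAUCCCauggugccuucuccu

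These 7 have 7 different seeds and lie on different chromosomes except for miR-346 (chr10:86264747-86264769) and miR-605 (chr10:51299588-51299610), which lie far apart on chromosome 10. miR-346 lies within the span of GRID1, miR-605 within PRKG1, miR-1266 within MYO5C and miR-324 within ACADVL, all protein-coding genes, while let-7d and miR-520h lie within long non-coding RNA genes. miR-520h (chr19:53742566-53742587) belongs to the primate cluster on chromosome 19 known from placenta. The other 3 shared assays were miR-720, miR-1974 and miR-1979.

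The assays detected in PC-3 alone are shown for comparison with the shared group, 4 of 6 with a sequence.
miR-450b-3p: uUGGGAUCauuuugcauccaua
miR-589 (now miR-589-5p): uGAGAACCacgucugcucugag
miR-1471: gCCCGCGUguggagccaggugu
miR-485-3p: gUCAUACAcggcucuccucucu

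The remaining sequences are from the 10 lowest Cq in the HepG2 control. Among these, miR-720, miR-1974, miR-1979 and miR-124 had no sequence, and that of let-7d* is given above. Of those printed, let-7b, miR-125b and miR-92a belong to families described below.
miR-125b (now miR-125b-5p): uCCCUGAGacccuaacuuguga
miR-24 (now miR-24-3p): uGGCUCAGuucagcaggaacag
let-7b (now let-7b-5p): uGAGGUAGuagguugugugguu
miR-133b: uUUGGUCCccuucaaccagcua
miR-92a (now miR-92a-3p): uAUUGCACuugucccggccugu

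HepG2 gave a wide background and PC-3 a narrow one. In HepG2, 125 of 745 assays were detected with the control probe (16.8%), and in PC-3 16 (2.15%). Both lines had 10 of these in common, 115 were detected in HepG2 alone, 6 in PC-3 alone and 614 in neither. The 2 panels contributed unequally in HepG2 and equally in PC-3. HepG2 detected 108 of 375 assays on panel 1 (28.8%), which carries most of the long-known and abundant miRNAs, and 17 of 370 on panel 2 (4.59%). PC-3 detected 8 on panel 1 (2.13%) and 8 on panel 2 (2.16%).

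Most of the background was scarce RNA in either line. The median Cq of detected assays was 33.27 in HepG2 and 34.18 in PC-3, and 30 assays in HepG2 and 3 in PC-3 had a Cq of at most 32. The edge of detection was crowded: 19 HepG2 assays lay within 0.5 cycles below the limit and 15 within 0.5 cycles above it, against 6 and 4 in PC-3. Just inside the limit stood miR-628-3p (Cq 34.97) and miR-17 (the limit itself to 2 decimals) in HepG2 and miR-485-3p (34.90) and miR-886-5p (34.92) in PC-3. Just outside stood miR-181b (35.10) and miR-502-3p (35.12) in HepG2 and miR-2110 (35.10) and miR-452* (35.16) in PC-3.

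**Figure D1:**
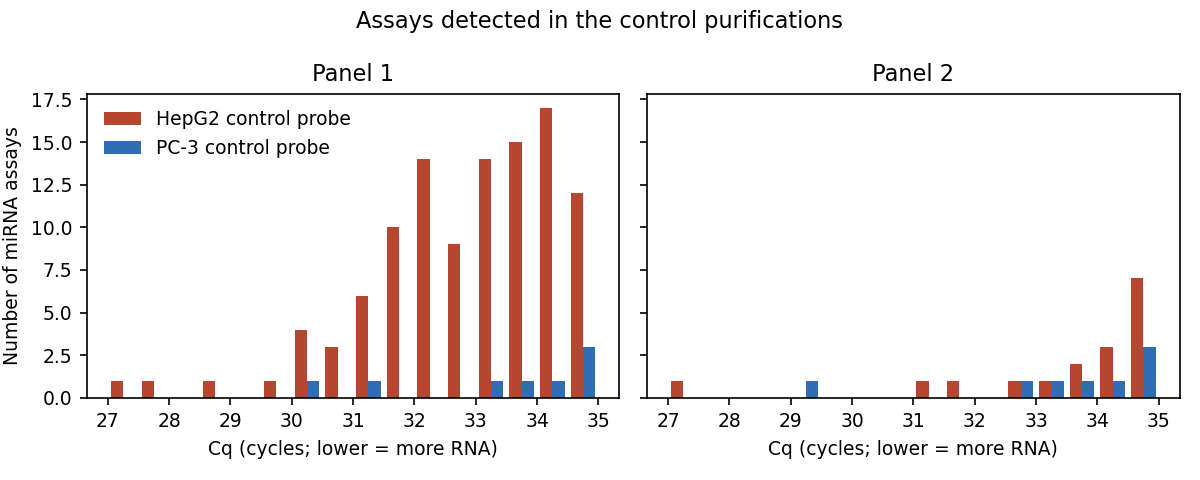
Number of detected miRNA assays (vertical axis) in bins of 0.5 cycles of Cq (horizontal axis) for the HepG2 and PC-3 control purifications, by panel. HepG2 has 108 detected assays on panel 1 and 17 on panel 2, PC-3 has 8 on each, and in each line most lie above Cq 32.

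The structural RNAs that came down with the control probe were near equal between the lines for U6 and SNORD38B and about 1 cycle apart for SNORD49A. U6, the spliceosomal RNA, stood at Cq 30.63 in HepG2 and 30.63 in PC-3 on panel 1, and at 30.14 and 29.80 on panel 2. SNORD38B, a small nucleolar RNA, stood at 30.70 and 30.41 on panel 1 and at 30.46 and 30.57 on panel 2. SNORD49A, another small nucleolar RNA, was later in PC-3, at 28.96 against 29.85 on panel 1 and 28.73 against 29.76 on panel 2. Over these 6 wells PC-3 was later by 0.23 ± 0.59 cycles (SD), within well error.

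The UniSp6 and UniSp3 control wells were later in PC-3 as well, mainly on panel 1. UniSp6 stood at Cq 21.41 in HepG2 and 22.74 in PC-3 on panel 1, and at 20.72 and 21.28 on panel 2. The UniSp3 calibrator, in 3 wells per plate, was a mean of 1.62 cycles later in PC-3 on panel 1 and 0.06 on panel 2. On panel 1 its wells ran from 20.51 to 21.06 in HepG2 and from 21.55 to 22.89 in PC-3, without overlap. Moving the PC-3 limit by the UniSp6 difference of each panel raised its count from 16 to 30 detected assays and the shared group from 10 to 17, still against 125 in HepG2. None of the 9 water wells of a purification gave a Cq in either line (0).

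The assays miR-720, miR-1974 and miR-1979, whose names no longer count as miRNAs, led the HepG2 background, and miR-1974 and miR-720 led that of PC-3. These names were withdrawn from miRBase because their sequences are fragments of other small RNAs. miR-720 stood at Cq 27.02 in HepG2 and 30.49 in PC-3, 3.47 cycles earlier in HepG2 (11.1-fold). miR-1974 stood at 27.13 and 29.46, 2.34 cycles earlier in HepG2 (5.05-fold). miR-1979 stood at 27.94 and 33.97, 6.03 cycles earlier in HepG2 (65.5-fold). These uncentred differences were beyond well error, the only ones of the 10 shared assays to be so, but their size depended on the reference. On U6, SNORD38B and SNORD49A, miR-1979, miR-720 and miR-1974 came to 5.83, 3.27 and 2.07 cycles, all still beyond well error. On the UniSp6 and UniSp3 wells miR-1979 came to 4.70 and 4.41 cycles (26.1- and 21.3-fold), still beyond well error. miR-720 came to 2.14 and 1.85 cycles (4.41- and 3.60-fold), the second within it. miR-1974, on panel 2, came to 1.78 and 2.28 cycles (3.43- and 4.86-fold), the first within it, and on the median of the shared assays both miR-720 (1.87) and miR-1974 (1.93, just under 2 SD) were within it. miR-1979 took last place of the 3 in both lines, but in PC-3 it lay close to the limit. If every assay amplified alike, the 3 together made up 45.2% of the summed signal of detected miRNA assays in HepG2 and 65.7% in PC-3, with miR-1979 at 9.70% and 1.88%.

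The other shared assays were nearer to equal. The passenger strand let-7d*, processed from the same hairpin as let-7d, was the fourth shared assay, at Cq 30.14 in HepG2 and 31.31 in PC-3 (1.17 cycles earlier in HepG2, 2.25-fold). In PC-3 it was the third most abundant of all assays, and the guide strand let-7d gave no Cq there and 34.48 in HepG2. miR-324-3p (32.82 and 34.51, a difference of 1.69) and miR-663 (33.19 and 34.68, a difference of 1.5) were also more than 2-fold earlier in HepG2. miR-520h (33.12 and 33.71) and miR-605 (34.33 and 34.57) differed by 0.58 and 0.24 cycles.

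miR-346 and miR-1266 were the shared assays earlier in PC-3. miR-346 stood at Cq 33.85 in HepG2 and 33.26 in PC-3 (-0.59) and miR-1266 at 33.95 and 33.08 (-0.87), both within well error. On UniSp3, miR-346 came to -2.21 cycles, beyond well error and higher in PC-3. Of the 10 shared assays, 6 (60%) were thus higher in HepG2 by 2-fold or more and 0 (0%) in PC-3. Of the 6, let-7d*, miR-324-3p and miR-663 were within well error and depended on the reference. On UniSp6 they came to -0.16, 0.36 and 0.17 cycles, which left only the 3 withdrawn names at least 2-fold higher. On U6, SNORD38B and SNORD49A they came to 0.97, 1.49 and 1.30 cycles, which left 5 of the 6 at least 2-fold higher.

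Of the 6 assays of PC-3 alone, 5 were close to the limit in PC-3, while in HepG2 they ranged from just past it to no Cq. miR-450b-3p, from an X-chromosome cluster (chrX:134540194-134540215), was the clearest in PC-3, at Cq 32.80 in PC-3 and 39.56 in HepG2. Against the limit of 35 it was at least 4.58-fold higher in PC-3. miRPlus-A1031, a proprietary name of the panel maker, stood at 34.39 in PC-3 and 36.33 in HepG2, and miR-589 at 34.40 with no Cq in HepG2. miR-1471 (34.86 and 36.29), miR-485-3p of the imprinted cluster on chromosome 14 (34.90 and 35.13) and miR-886-5p (34.92 and 39.26), a withdrawn name for part of a vault-like RNA, had bounds of at most 1.10-fold. Of these 6, 5 had a Cq above the limit in HepG2, and HepG2 was near detection for miR-485-3p and far from it for miR-450b-3p and miR-886-5p.

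**Figure D2:**
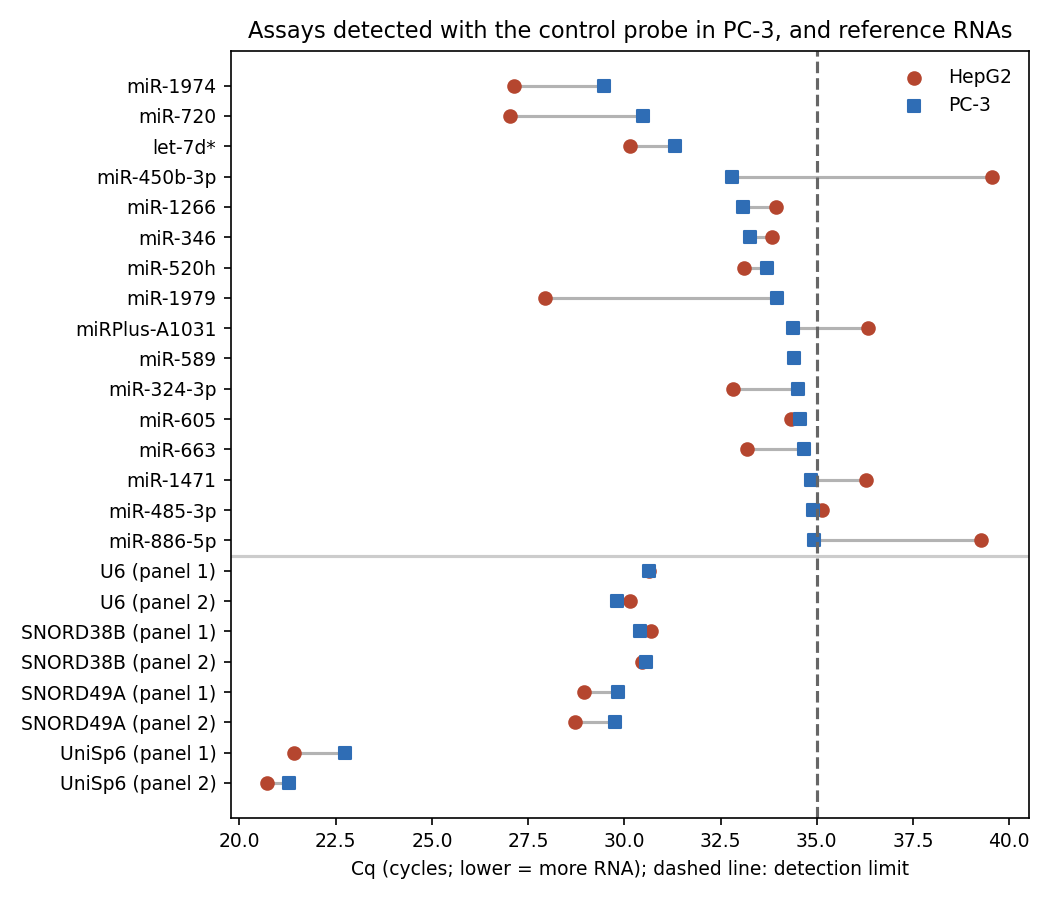
Cq (horizontal axis, cycles) of the 16 miRNA assays detected with the control probe in PC-3 and of the U6, SNORD38B, SNORD49A and UniSp6 wells on each panel, with circles for HepG2, squares for PC-3 and a dashed line at the limit of 35. miR-1979 spans 27.94 to 33.97 and miR-450b-3p 39.56 to 32.80, while U6 and SNORD38B nearly coincide.

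Below the withdrawn names, the HepG2 background was led by a brain miRNA. miR-124, which promotes the neuronal state, stood at Cq 28.97 in HepG2 and gave no Cq in PC-3, at least 65.3-fold higher in HepG2 if a Cq of 35 is the same floor in both lines. With the later panel 1 wells of PC-3 subtracted, that bound was at least 26.0-fold on UniSp6 and 21.3-fold on UniSp3. miR-125b (29.83), let-7d* (30.14), miR-24 (30.25), let-7b (30.32), the muscle miRNA miR-133b (30.50), miR-92a (30.58), the smooth-muscle miRNA miR-145 (30.73), the brain miRNA miR-9 (30.81), miR-103 on panel 2 (31.06), miR-30c (31.14) and let-7g (31.15) followed. In PC-3, miR-125b (36.80), miR-24 (36.38), miR-133b (39.31) and miR-103 on panel 2 (37.53) had a Cq past the limit, and let-7b, miR-92a, miR-145, miR-9, miR-30c and let-7g had none.

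The size of most HepG2-alone differences could only be bounded. Of the 115 assays, 86 (74.8%) gave no Cq in PC-3 and 29 gave one above 35. The bound was at least 2-fold for 77 and under 2-fold for 38, and 52 had a bound beyond well error. With UniSp6 subtracted these counts were 44 and 21, and with UniSp3 34 and 16. Reproducibility at these levels can be seen from miR-103, measured on both panels of the HepG2 control at Cq 33.50 and 31.06, a gap of 2.44 cycles. miR-423-5p was detected on panel 1 (34.43) and gave no Cq on panel 2 in HepG2, and miR-191 missed the limit on both (35.55 and 35.93).

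Most members of several families came down in HepG2. PC-3 detected no member of these families, but it detected only 2.13% of all panel 1 assays. With families this small, that absence cannot be told from the panel 1 share of PC-3. Beside the 28.8% of panel 1 assays detected in HepG2, 8 of 9 let-7 members with miR-98 were detected, from let-7b (30.32) to let-7d (34.48), miR-98 being the one that was not. Their shared seed GAGGUAG was the largest seed group of the HepG2 background. The miR-23, miR-24 and miR-27 clusters, on different chromosomes and each with its members side by side, were detected in 5 of 5 members. They were led by miR-24 (30.25) and miR-23a (31.45). The miR-29 family was detected in 3 of 3, from miR-29a (32.46) to miR-29b (33.66). The miR-125 and miR-99/100 families gave 4 of 5 members, with miR-125b (29.83) first.

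The miR-25 and miR-92 family (seed AUUGCAC) gave 4 of 6 members, namely miR-92a (30.58), miR-92b (33.16), miR-25 (33.77) and miR-32 (34.22). The miR-17 family (seed AAAGUGC), products of clusters known to drive cell proliferation, gave 4 of the 6 members listed. They ran from miR-106a (32.01) to miR-17 at the limit. Of the 8 panel members with that seed, 4 were detected. The miR-15/16 family (seed AGCAGCA), which restrains the cell cycle, gave 4 of 6, from miR-16 (33.22) to miR-15b (34.38). The miR-30 family gave 2 of 5, the family of miR-34 and miR-449 2 of 5 and the miR-181 family 1 of 4, nearer to the share of the panel. Among the 109 detected HepG2 names with a sequence there were 81 seeds, and 43 names fell into 15 groups that share one.

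The 2 large clusters and the star names were detected at or below the share of their panel in HepG2, and the names of 4 digits above it, all on small counts. The imprinted cluster on chromosome 14 gave 5 of 58 assays in HepG2 (8.62%), namely miR-136 (31.32), miR-412 (32.95), miR-665 (33.00), miR-134 (33.97) and miR-495 (34.53), and miR-485-3p in PC-3. In HepG2 that was 4 of 35 on panel 1 (11.4%, beside 28.8%) and 1 of 23 on panel 2 (4.35%, beside 4.59%). The placental cluster on chromosome 19 gave miR-520h in each line, 1 of 25 assays on panel 2, and 0 of 21 on panel 1. Passenger strands, the star names, gave 7 of 155 in HepG2, 3 of 29 on panel 1 (10.3%) and 4 of 126 on panel 2 (3.17%), and let-7d* in PC-3. Of the 63 names with numbers of 4 digits, 6 were detected in HepG2 and 4 in PC-3, and miR-1974, miR-1979 and miR-1266 were in both. On panel 2, which holds 62 of them, HepG2 detected 5 (8.06%, beside 4.59% of all its assays) and PC-3 3 (4.84%, beside 2.16%).

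**Figure D3:**
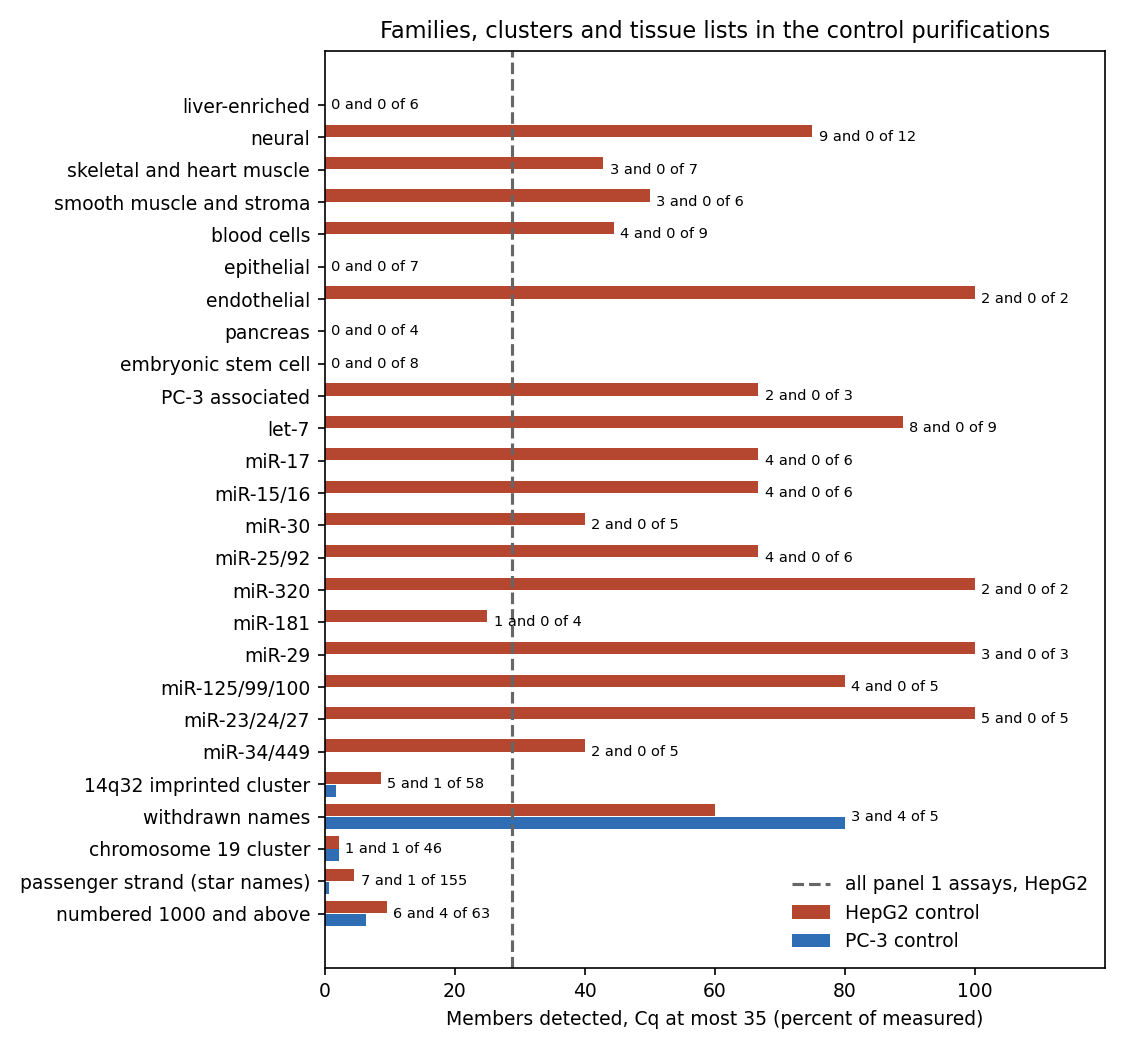
Percent of measured members detected (horizontal axis) for each tissue list, family and cluster, with red bars for the HepG2 control, blue bars for the PC-3 control, counts beside the bars, and a dashed line at the 28.8% of panel 1 assays detected in HepG2. The let-7 bar reaches 8 of 9 and the neural bar 9 of 12 in HepG2, the liver-enriched list is at 0 of 6, and PC-3 has bars only for the withdrawn names, late-numbered names, star names and the 2 chromosome clusters.

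By tissue list, the neural miRNAs stood well above the panel 1 share in HepG2, while the muscle, blood, endothelial and liver lists were short. The lists name tissues these miRNAs are known from, not a measured origin of the recovered RNA. Like the families and clusters above, they were chosen with earlier results of these data known, so their shares are a description only. Of 12 neural miRNAs, 9 were detected in HepG2 (75%, beside 28.8% of panel 1) and the other 3, miR-218, miR-153 and miR-9*, had a Cq between 35.39 and 35.83. After miR-124 and miR-9 came miR-338-3p (31.79), miR-128 (32.08), miR-138 (32.43), miR-219-5p (32.55), miR-132 (33.42), miR-137 (34.18) and miR-129-5p (34.75). In PC-3, 0 were detected, beside 2.13% of all panel 1 assays, and miR-132 alone had a Cq (36.49).

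The other tissue lists were shorter, and with 28.8% of panel 1 assays detected in HepG2, counts of 3 or 4 lie within 1 or 2 assays of that share. Striated muscle gave 3 of 7, miR-133b (30.50), miR-1 (31.52) and miR-133a (31.77). Smooth muscle and stroma gave 3 of 6, miR-145 (30.73), miR-143 (32.43) and miR-199a-5p (34.13). Blood cells gave 4 of 9, the myeloid miR-223 (31.53), the erythroid miR-451 (32.84), the leukocyte miR-142-3p (33.13) and the lymphoid miR-150 (34.02). Both endothelial assays were detected, miR-126 (31.26) and miR-126* (33.63). PC-3 detected 0 of these, beside 2.13% of all panel 1 assays. A Cq past the limit was called in PC-3 for 1 neural, 2 striated muscle, 1 smooth muscle and 2 blood-cell members.

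Of the 6 liver-enriched miRNAs and the 3 PC-3 miRNAs listed, the control purifications detected 0 in the line concerned. Both lists are short, so these counts cannot be told from the share of panel 1 in each line. In HepG2, 0 of 6 liver-enriched miRNAs were detected, beside 28.8% of panel 1, and only miR-148a had a Cq (37.55). The STAT3 probe in HepG2 detected 4 of the 6, miR-215 (33.67), miR-192 (33.76), miR-148a (34.41) and miR-194 (34.43), and the p21 probe 0. Over all panel 1 assays in HepG2, the STAT3 probe detected 37.1% and the p21 probe 34.1%. miR-122, the defining miRNA of hepatocytes, gave no Cq in any purification. In PC-3, 0 of 3 miRNAs known to be high in that line were detected, with miR-222 at 37.40, miR-31 at 39.04 and no Cq for miR-221, where 2.13% of all panel 1 assays were detected. HepG2 itself gave miR-221 at 32.41 and miR-222 at 32.49. The lists of epithelial (0 of 7), pancreatic (0 of 4) and embryonic stem cell (0 of 8) miRNAs were undetected in both control purifications, beside 28.8% of panel 1 in HepG2 and 2.13% in PC-3. Of the epithelial list, the STAT3 probe detected 4 of 7 in HepG2 and the p21 probe 1, beside 37.1% and 34.1% of panel 1. Whether the tissue-list miRNAs of the HepG2 control came from the cells was not tested.

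Most of the HepG2 background came down again with the target probes of the same line. Of the 125 HepG2 control assays, the p21 probe brought down 103 (82.4%), the STAT3 probe 100 (80%) and both probes 89 (71.2%). Over all 745 assays these probes brought down 28.3% and 34.4%. In PC-3, the p21 probe brought down 34 (27.2%), beside 7.11% of all assays. Among the 115 assays of HepG2 alone, 25 (21.7%) passed the limit with the p21 probe in PC-3, led by miR-92a (27.81), let-7b (28.99) and miR-320a (30.34), beside 3.06% of the 620 assays not detected in the HepG2 control. Of the 16 PC-3 control assays, 10 were detected again with the p21 probe in that line, 14 with p21 in HepG2 and 16 with STAT3, and 9 were found in all 5 purifications.

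There were 11 HepG2 control assays that neither target probe brought to the limit. They were led by miR-34c-5p, a miRNA induced by p53 and abundant in testis and airway, at Cq 33.33 with the control, no Cq with p21 and 39.68 with STAT3. miR-135a (33.46, 37.51 and 37.93) and miR-708 (33.92, 36.57 and 36.33) followed in the same order of probes. miR-32 (34.22) gave no Cq with either target probe, and the other 7 lay between 34.20 and 34.97 with the control.

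Some HepG2 control assays had their lowest Cq in that line with the control probe. Over all 125 assays these were 40 (32%). They included 15 of the 21 detected members of the neural, striated muscle, smooth muscle, blood and endothelial lists, but these were picked by their detection with the control and each gap was within well error, so the count is a description only. miR-1 stood at 31.52 with the control, 36.41 with p21 and 33.19 with STAT3. miR-126 stood at 31.26, 32.46 and 32.59, a gap of 1.20 cycles to the nearer probe. miR-934, outside these lists, stood at 31.78, 35.47 and 34.88, a gap of 3.10 cycles to the nearer probe.

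The exceptions in the tissue lists included their most abundant member. miR-124 stood at Cq 28.97 with the control, 29.16 with p21 and 28.52 with STAT3, all within well error. miR-145 (30.73, 30.63 and 31.86) and miR-133a (31.77, 31.64 and 31.96) were likewise near equal. miR-199a-5p went the other way, at 34.13 with the control, 30.92 with p21 and 34.79 with STAT3, the control later than p21 by more than well error. U6, SNORD38B and SNORD49A were later with the control than with either HepG2 target probe on both panels, as for SNORD49A on panel 1 at 28.96 with the control, 26.33 with p21 and 27.05 with STAT3. Each of these values comes from 1 purification, and the control is common to both comparisons.

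**Figure D4:**
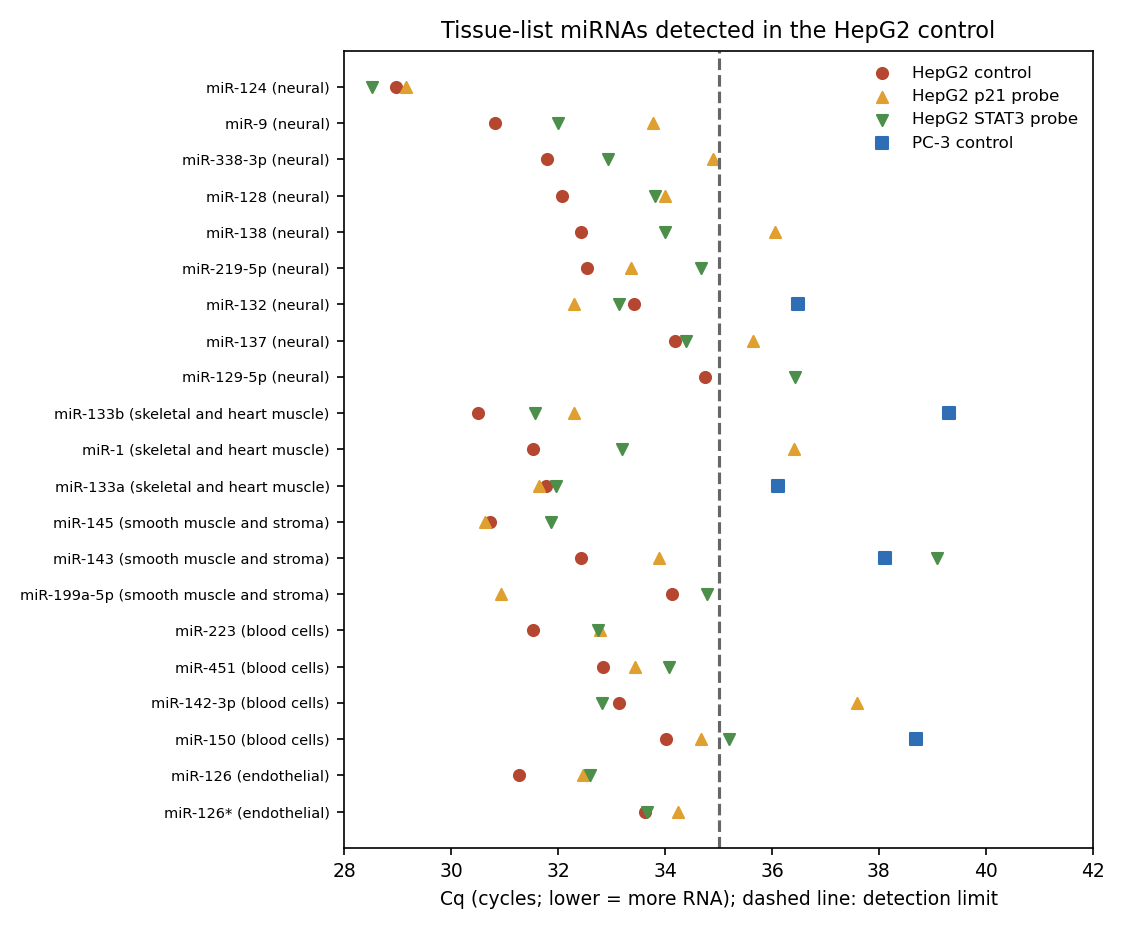
Cq (horizontal axis, cycles) of the 21 tissue-list miRNAs detected in the HepG2 control, with circles for the HepG2 control, triangles for the p21 (up) and STAT3 (down) probes in HepG2, squares for the PC-3 control and a dashed line at the limit of 35. In 15 of the 21 the control has the lowest HepG2 Cq, each by less than well error, and the PC-3 squares that exist all lie past the limit.

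The base composition of the HepG2 background was close to that of undetected assays on panel 1 and was richer in G and C on panel 2. The panel 2 set is small (14 assays with a sequence), and 10 of the 17 detected there lay above Cq 34. Its composition is a description only. Over both panels, G and C made up a median of 47.8% of the bases of 110 detected HepG2 assays with a sequence and 47.6% in 513 undetected in either line, and 17.3% and 13.6% of them had at least 60% G and C. On panel 2 the median was 57.8% in 14 detected assays, 6 of them (42.9%) with at least 60%, and 47.8% in 279 detected in neither line, 15.4% of them with at least 60%. On panel 1 it was 47.8% in 96 detected and 47.6% in 234 detected in neither. In PC-3 only 11 of 16 assays had a sequence (68.8%), too few for such a comparison. Among those 11, miR-663 (90.9%), miR-324-3p (73.9%), miR-1471 (72.7%), miR-346 (65.2%) and miR-1266 (60.9%) were rich in G and C, and miR-450b-3p (36.4%) and miR-520h (40.9%) were not.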

How the data were processed

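Per the labels' protocols, probe-bound RNA was captured on streptavidin Dynabeads, isolated with TRIzol and measured with Exiqon SYBR Green miRNA panels. The deposited table holds Cq values without normalisation, and uncalled wells read Undetermined. Neither instrument, threshold nor software is given in the sources used here. The authors' deposited fold ratios compare target with control probes and were not used. With Python 3.11.15, the value was the Cq in PC-3 minus the Cq in HepG2 within a panel for assays at or under 35 in both, uncentred because only 10 assays were shared; otherwise 35 minus the Cq gave a bound. Undetected assays were not imputed. Classification was tested on simulated data. Assays were named by rule: all those detected in PC-3, the 15 lowest Cq in HepG2, detected list members, assays at the limit and reference wells; miR-934, miR-320a, miR-34c-5p, miR-135a, miR-708, miR-32 and undetected list members were also chosen after their values were seen. Members and lists were chosen with earlier results of these data known. RefSeq matched 627 of 745 assays, with arms of older names assigned by hand.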

Additional observations from a re-analysis of the deposited data

How the results depend on the processing

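The counts followed the limit. At Cq 32, 37 and any Cq called, HepG2 had 30, 209 and 293 assays, PC-3 3, 57 and 119, both 3, 37 and 82, and PC-3 alone 0, 20 and 37. HepG2 alone had 27 at Cq 32 and 211 at any Cq. With the PC-3 limit moved by UniSp6, PC-3 had 30, both 17 and PC-3 alone 13. HepG2 had more than PC-3 at every limit tried. At Cq 37 the median Cq was 34.43 in HepG2 and 35.89 in PC-3. HepG2 control assays seen again with a target probe numbered 24 at Cq 32 and 189 at Cq 37, against 114. At Cq 32 HepG2 detected 27 of all 375 panel 1 assays, the share to set beside the counts that follow. The neural list fell to 3 of 12 and the let-7 list to 2 of 9. At that limit HepG2 detected no listed member of the miR-17, miR-15/16 and miR-29 families. The miR-23, miR-24 and miR-27 clusters kept 3 of 5 members there, and the miR-125 and miR-99/100 families 3 of 5. Shared assays at least 2-fold higher in HepG2 numbered 3 on UniSp6, UniSp3 or their own median and 5 on U6, SNORD38B and SNORD49A. Those higher in PC-3 numbered 2, 1 and 2, and 1 on U6, SNORD38B and SNORD49A. With undetected assays set to 35, and so no longer limited to shared ones, 83 were higher in HepG2 and 1 in PC-3. miR-663 turned to -0.12 on UniSp3 and -0.10 on the median, and let-7d* to -0.16 on UniSp6, -0.45 on UniSp3 and -0.42 on the median; each of these centres subtracts more than the uncentred difference. In alternatives added after the values were seen, shared assays beyond well error and higher in HepG2 numbered 3 uncentred, 2 on UniSp6, 2 on UniSp3 and 1 on the median, and higher in PC-3 1 on UniSp3 and 1 on the median, against 0. HepG2-alone bounds of at least 2-fold numbered 44 on UniSp6 and 34 on UniSp3, against 77, and those beyond well error 21 and 16, against 52. miR-1979, miR-720 and miR-1974 stayed at least 2-fold higher in HepG2 under every centring tried. No paired analysis was possible because each condition was purified 1 time. Depth limits the 31.2% of detected HepG2 assays and 50% of PC-3 assays that lie above Cq 34.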
